A study of Caenorhabditis elegans with 12 samples.

Results

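The col genes of Caenorhabditis elegans, most of which encode cuticle collagens, were read from whole-worm expression arrays of wild type and of 2 fer-1 mutants. A probe set, the group of short array probes that reports a transcript, was taken when every gene symbol the platform annotation gives it has the form col and a number. This found 161 of the 22548 probe sets that are not array controls, covering 148 col genes. Where a gene, or a set of genes sharing a probe set, had more than 1, the probe set with the highest mean over the 12 arrays was kept, which left 140 members of the 17899 genes or gene sets named on the array. Of these, 128 are annotated to 1 gene and 12 to several genes that the probes cannot tell apart, written here as col-12/col-13. No measured difference was used in this choice.

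The groups were wild type (strain N2), fer-1(hc1ts) (strain BA1) and fer-1(hc24ts) (strain BA24), both mutant alleles being temperature-sensitive, with 4 arrays of biological replicates each: replicates 3, 4, 5 and 6 of wild type, 1, 2, 5 and 6 of hc1, and 1, 2, 3 and 5 of hc24. All 3 groups were raised from synchronised larvae at 25 °C, the wild type controls included, and all samples are labelled young adult. For each sample 1000 adults were sorted with a gate that left out the last larval stage and younger worms. Each allele was measured in 1 strain, so allele and strain background cannot be told apart. The series description says that 4 of 6 preparations per genotype were kept for how well they correlated, so the spread between arrays understates that between preparations.

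Cuticle collagens are short collagens with repeated Gly-X-Y triplets that the epidermis secretes and cross-links into the worm's outer skeleton. The cuticle is rebuilt at every molt, and different collagen genes are transcribed in waves within a molting cycle and at different stages, some only in adults. The fer-1 gene product belongs to the ferlin family and is known for fusing membranous organelles during sperm maturation. A few genes with a col name are not thought to be cuticle collagens, such as col-99, a membrane collagen.

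The comparisons ask how transcript levels in each mutant differed from wild type, and how the mutants differed from each other. Values are the authors' log2 expression values, and a value under log2 4 was treated as background. The fer-1 probe set itself lay at 1.46 to 1.48 in every array, so it gave no check of the labels. The median over all probe sets was 4.53 to 4.66 in wild type arrays and 4.33 to 4.37 in mutant arrays. In hc1 replicate 2 the summed level of 21 major sperm protein genes was log2 14.13, against 9.78 to 10.81 in the other hc1 arrays. It was 10.22 to 11.70 over the wild type arrays, while the hc24 arrays had 14.39 to 14.69. This array is therefore shown apart below, and counts are given with and without it. In whole worms, fewer cells of a type and less RNA per cell cannot be told apart.

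Many col genes were either very bright or at background on these arrays. Of the 140 members, 84 passed the filter (log2 4 or more in at least 4 arrays) and were tested, and 56 did not, of which 53 were under log2 4 in all 12 arrays. None of the 84 passed it through 1 genotype alone. By their mean over the arrays, 32 tested members lay at log2 12 or more, 14 from 8 to under 12, and 38 under 8. These levels are the brightness of probe sets and give no order of transcript amounts between genes. The brightest probe set was that of col-119, with values of 15.99, 15.81, 15.97 and 15.95 in wild type, 15.83, 15.85, 15.82 and 15.81 in hc1 and 15.98, 16.04, 15.95 and 16.07 in hc24, at or above percentile 99.9 of all probe sets in every array. The highest value of any member, 16.33, was that of col-93 in hc24 replicate 5, against 16.65 for the highest of the whole table; how far differences are compressed near this top was not tested.

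**Figure D1:**
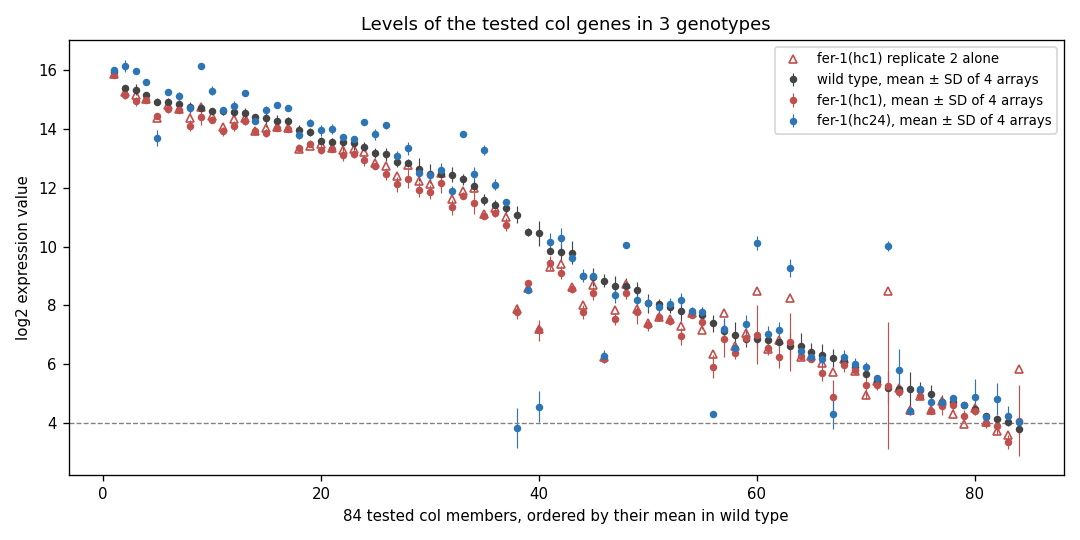
Log2 expression value (vertical axis) of the 84 tested col members, ordered along the horizontal axis by their wild type mean, with the mean and SD of 4 arrays for wild type (grey), hc1 (red) and hc24 (blue), hc1 replicate 2 as an open triangle and background (log2 4) as a dashed line. In the 32 members at log2 12 or more, hc1 points sit under the wild type points as deposited (after median centring 5 of them, col-106, col-119, col-122, col-140 and col-179/col-178, lie above) and most hc24 points above them, with exceptions such as the low hc24 point near log2 13.70, which is col-95.

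Among the members that were not tested, col-113 and col-50 had the highest means. The 4 wild type values of col-113 were 4.15, 4.88, 4.67 and 3.88, and its 8 mutant values lay between 3.48 and 3.70. All 12 values of col-50 lay between 3.61 and 3.99. Also at background in all 12 arrays were col-62/col-7, whose col-7 is known as an adult collagen gene (values of 2.15 to 2.85), col-99 (2.16 to 2.23) and col-120 (2.33 to 2.61). The values of these 3 members did not exceed background in any genotype.

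In hc1, col genes fell and none rose on the deposited scale. Against wild type 58 of the 84 tested members, or 69.0%, were lower at an adjusted p under 0.05 (limma) and 0 were higher, also at an unadjusted p under 0.05, where 25.9% of all 11833 tested probe sets were lower and 43.3% were higher. Most falls were small: the median over the 58 was 1.47-fold, and 10 members fell at least 2-fold (11.9%, beside 10.8% of all probe sets). The median log2 difference was -0.42 over the members and 0.14 over all tested probe sets. In 37 members (44.0%, beside 23.2% of all probe sets) every hc1 array lay under every wild type array. Without hc1 replicate 2, 60 were lower (71.4%, beside 25.4%) and 56 did not overlap (66.7%, beside 24.5%).

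The share that fell in hc1 differed with brightness. Of the 32 members at log2 12 or more 28 were lower, or 87.5%, where 22.7% of equally bright probe sets were. Of the 14 in the middle range 13 were lower (92.9%, beside 18.6%), whereas of the 38 under log2 8 17 were (44.7%, beside 40.2%), a share close to that of other dim probe sets. The share called higher was not close, at 0 of the 38 beside 27.9% of equally dim probe sets. After median centring, which sets the median of all probe sets equal between arrays and so lowers wild type against both mutants, 9 of the 32 bright members were lower (28.1%) and 1 was higher, where 164 of 1364 equally bright probe sets were lower. In the middle range 9 of 14 were lower (64.3%, beside 13.7%), and of the dim members 9 of 38 (23.7%, beside 31.9%). After cyclic loess all 32 bright members were lower, beside 47.2%, all 14 in the middle, beside 26.9%, and 19 of the 38 dim ones, beside 42.7%. The counts over the class moved likewise. After centring 27 members were lower (32.1%, beside 19.3%) and 2 higher; after cyclic loess 65 were lower (77.4%, beside 34.3%). The members' median stood 0.56 log2 units under that of all tested probe sets with the deposited values. Median centring shifts all probe sets of an array alike, so it cannot change this gap. After cyclic loess, which can change it, the gap was -0.56.

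In hc24 neither the share of members called higher nor the share called lower exceeded that of all tested probe sets. Against wild type 27 members were higher (32.1%, beside 37.7% of all tested probe sets) and 9 were lower (10.7%, beside 21.7%). At 2-fold or more, 7 were higher (8.33%, beside 5.27%) and 7 lower (8.33%, beside 9.52%). The median log2 difference was 0.16 over the members and 0.12 over all tested probe sets. Among the bright members 18 of the 32 at log2 12 or more were higher (56.2%, beside 34.3% of equally bright probe sets) and 1 lower, col-95. Of these 32, 26 were higher after median centring (81.2%), where 996 of 1364 equally bright probe sets were, and 13 after cyclic loess (40.6%, beside 13.9%), with 3 lower. The split moved with scaling, from 27 higher and 9 lower to 55 and 8 after median centring (7688 and 1878 of the 11833 probe sets) and to 20 and 12 after cyclic loess (2726 and 3264).

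The alleles themselves differed over most of the class. hc1 was lower than hc24 in 56 of 84 members (66.7%, beside 12.2% of all tested probe sets) and higher in 4 (4.76%, beside 18.6%). Of the 56, 17 were at least 2-fold lower (20.2%, beside 3.41%), and in 55 members every hc1 array lay under every hc24 array (65.5%, beside 12.9%). Among the 32 brightest members 31 were lower in hc1 (96.9%, beside 15.2% of equally bright probe sets). The median difference was -0.59 over the members and 0.07 over all probe sets. This comparison changed little with scaling, with 55 lower after median centring and 57 after cyclic loess, and without hc1 replicate 2 again 56 were lower (66.7%, beside 11.5%) and 62 did not overlap (73.8%, beside 14.3%).

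Set side by side, the 3 comparisons sort the members as follows; both mutants are compared with the same wild type arrays, so their differences share the error of those arrays. Lower in hc1, not passed in hc24 and lower in hc1 than in hc24 were 25 members (29.8%, beside 4.12% of all tested probe sets), among them col-10/col-144 and col-12. Lower in hc1 but higher in hc24 were 19 (22.6%, beside 1.68%), among them col-19, col-93, col-98, col-103 and col-124. Another 7 (8.33%, beside 2.64%) were higher in hc24 and lower in hc1 than in hc24 without passing in hc1: col-72, col-81, col-122, col-129, col-139, col-140 and col-142. Lower in both mutants were 9 (10.7%, beside 18.3%), and 14 passed in none of the comparisons (16.7%, beside 21.6%). By their means on the deposited scale 53 of the 84 had the order hc1, wild type, hc24 from low to high, and 20 the order hc1, hc24, wild type. These orders were not counted over all tested probe sets, so they cannot be read as particular to the class. They also depend on scaling, since median centring lowers wild type against both mutants.

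**Figure D2:**
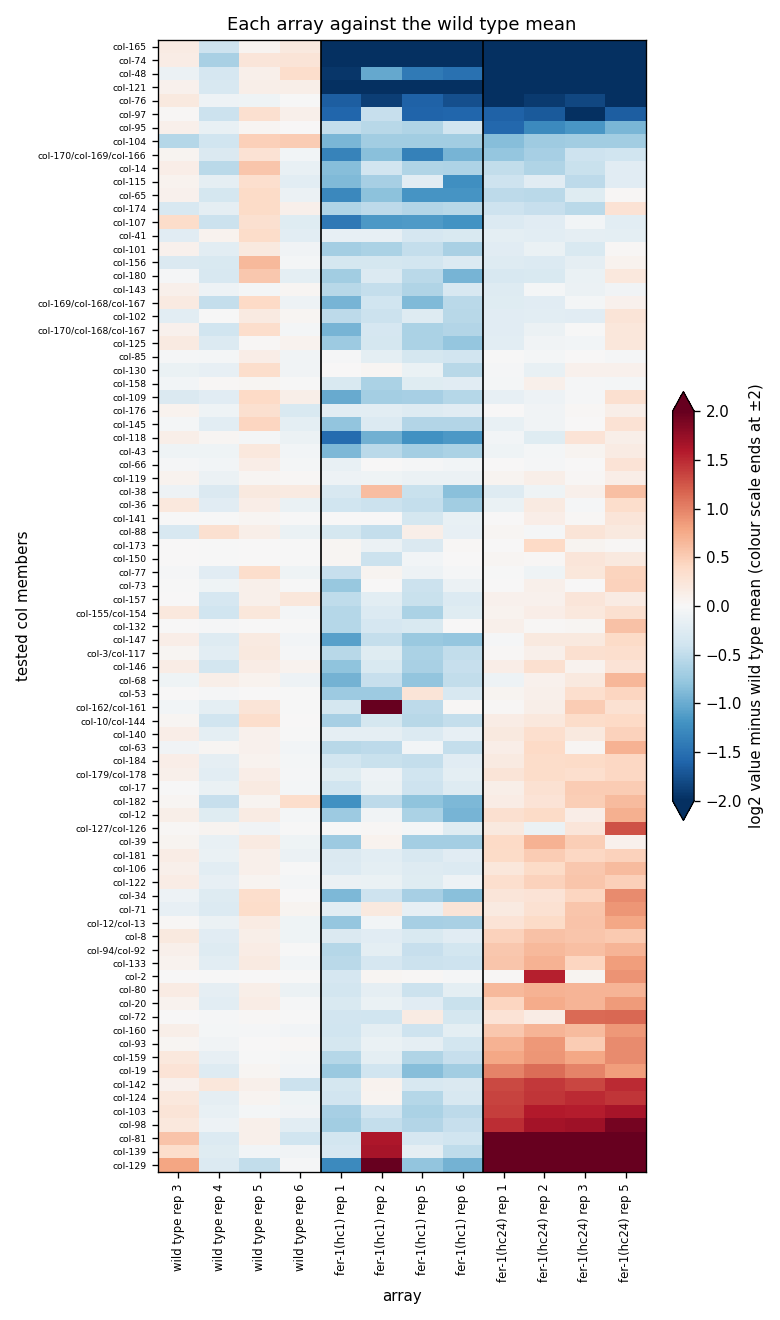
Difference of each array from the wild type mean (log2, colour from blue for lower to red for higher, ending at 2 in either direction) for the 84 tested col members (rows, ordered by the hc24 difference) on the 12 arrays (columns, in groups of 4). Most rows are pale blue across the hc1 arrays on this deposited scale, the rows at the top are dark blue in both mutants, and the rows at the bottom are red in hc24, with col-129, col-139 and col-81 red in hc1 replicate 2 as well.

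A small set of collagens fell steeply in both mutants. col-165, a collagen gene on chromosome X, had log2 values of 11.24, 10.67, 11.14 and 11.27 in wild type, 7.56, 7.89, 8.11 and 7.60 in hc1 and 3.23, 4.42, 4.45 and 3.28 in hc24. Every hc1 array lay under every wild type array, and every hc24 array under every hc1 array, with 2 of the hc24 arrays at background. The fall was 9.77-fold in hc1 (log2 difference -3.29, SE 0.28, adjusted p = 6.63e-07) and at least 135-fold in hc24 (adjusted p = 4.19e-10). hc1 was at least 13.8-fold above hc24 (adjusted p = 8.60e-07).

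col-74, on chromosome II, followed the same order, with values of 10.59, 9.80, 10.69 and 10.70 in wild type, 6.81, 7.20, 7.64 and 6.98 in hc1 and 5.12, 4.06, 4.17 and 4.89 in hc24. The 3 groups did not overlap. It fell 9.74-fold in hc1 (adjusted p = 5.89e-07) and 59.1-fold in hc24 (adjusted p = 2.42e-09), and hc1 was 6.06-fold above hc24 (adjusted p = 1.98e-05). col-48, on chromosome I, was dimmer and again stepped down, with values of 7.28, 7.06, 7.500 and 7.74 in wild type, 5.44, 6.36, 5.98 and 5.91 in hc1 and 4.33, 4.32, 4.32 and 4.33 in hc24. Its 4 hc24 arrays were almost equal and just above background. The falls were 2.77-fold (adjusted p = 1.20e-05) in hc1 and 8.40-fold (adjusted p = 1.59e-08) in hc24, and the alleles differed 3.03-fold (adjusted p = 2.59e-05).

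Other members fell by closer amounts in both alleles. col-76, on chromosome II, had values of 10.68, 10.38, 10.40 and 10.47 in wild type, 8.83, 8.60, 8.87 and 8.72 in hc1 and 8.45, 8.57, 8.66 and 8.42 in hc24. Both mutants lay clear of wild type and overlapped each other. The falls were 3.31-fold in hc1 (adjusted p = 6.34e-09) and 3.87-fold in hc24 (adjusted p = 1.77e-09), and the difference between the alleles did not pass (adjusted p = 0.0718) but did without hc1 replicate 2 (adjusted p = 0.0422) or without wild type replicate 3 (adjusted p = 0.0461), and with array weights (adjusted p = 0.0176). col-97, on chromosome III, had values of 6.23, 5.78, 6.53 and 6.30 in wild type, 4.62, 5.75, 4.61 and 4.62 in hc1 and 4.598, 4.53, 3.57 and 4.57 in hc24. hc1 replicate 2 lay beside the lowest wild type array and the other hc1 arrays near background. It fell 2.48-fold in hc1 (adjusted p = 0.00166) and 3.71-fold in hc24 (adjusted p = 0.000147), while its second, dimmer probe set fell 1.27-fold and 1.23-fold.

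For col-121, on chromosome IV, the 2 probe sets gave different pictures. The brighter by its mean had values of 8.92, 8.52, 8.96 and 8.96 in wild type, 6.27, 6.26, 6.13 and 6.13 in hc1 and 6.17, 6.59, 6.18 and 6.14 in hc24, so both mutants were lower by similar amounts (6.25-fold in hc1, adjusted p = 2.15e-09; 5.94-fold in hc24, adjusted p = 2.35e-09). The other had 10.42, 9.77, 9.60 and 10.34 in wild type, 5.94, 6.13, 6.39 and 6.22 in hc1 and 4.67, 4.59, 4.71 and 4.63 in hc24. There the falls were 14.6-fold and 41.7-fold, and hc1 was 2.86-fold above hc24 (adjusted p = 2.57e-05), a step that the first probe set did not show (adjusted p = 0.680). Both are of the kind whose probes match more than 1 transcript, so which of them follows col-121 is uncertain.

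col-95, on chromosome III, was the 1 member of the 32 brightest that fell in hc24. Its values were 15.03, 14.77, 14.96 and 14.93 in wild type, 14.45, 14.37, 14.32 and 14.54 in hc1 and 13.35, 13.66, 13.76 and 14.01 in hc24, with no overlap between any groups. It fell 1.42-fold in hc1 (adjusted p = 0.00241; 0.0546 after median centring) and 2.34-fold in hc24 (adjusted p = 2.61e-06), and hc1 was 1.65-fold above hc24 (adjusted p = 0.000604). The remaining 2 of the 9 members lower in both were col-104 (1.68-fold and 1.67-fold) and col-170/col-169/col-166 (2.17-fold and 1.48-fold), named after their values were seen.

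**Figure D3:**
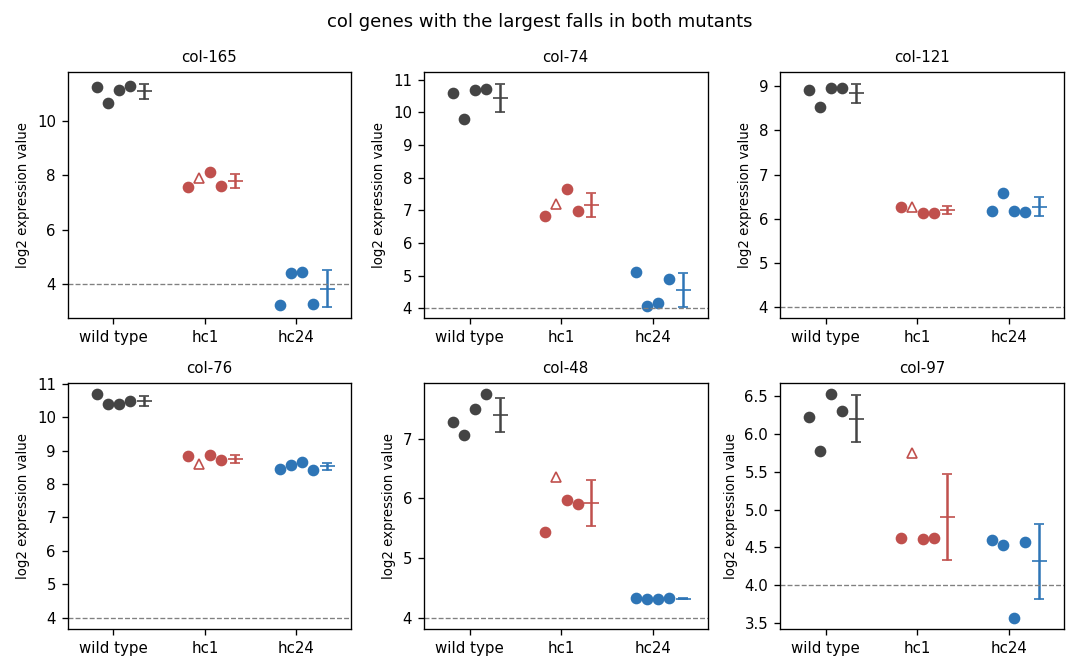
Log2 expression value of each array for the 6 col genes that fell most in hc1, in wild type (grey), hc1 (red, replicate 2 as an open triangle) and hc24 (blue), with the mean and SD of 4 arrays beside the points and background (log2 4) as a dashed line. Every mutant array lies under every wild type array in all 6 panels. The hc24 arrays lie under the hc1 arrays without overlap in col-165, col-74 and col-48, and barely so in col-97 (highest hc24 value 4.598, lowest hc1 value 4.606).

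A second set stood out for opposite directions in the alleles. col-98, on chromosome III, had values of 11.79, 11.49, 11.70 and 11.38 in wild type, 10.90, 11.11, 10.999 and 11.13 in hc1 and 13.07, 13.26, 13.29 and 13.50 in hc24. All hc1 arrays lay under wild type and all hc24 arrays above it. It fell 1.47-fold in hc1 (adjusted p = 0.000642) and rose 3.22-fold in hc24 (adjusted p = 5.11e-08), a 4.74-fold difference between the alleles (log2 -2.24, SE 0.11, adjusted p = 3.36e-08). col-103, on chromosome IV, showed the same arrangement, with values of 12.54, 12.13, 12.24 and 12.22 in wild type, 11.62, 11.90, 11.65 and 11.76 in hc1 and 13.66, 13.87, 13.84 and 13.92 in hc24. Its changes were 1.46-fold down (adjusted p = 0.000351) and 2.92-fold up (adjusted p = 5.00e-08), 4.26-fold between the alleles (adjusted p = 2.99e-08).

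col-19, the adult cuticle collagen whose transcription is known to depend on the zinc-finger factor LIN-29, belonged to this set. Its values were 13.42, 12.88, 13.17 and 13.09 in wild type, 12.40, 12.74, 12.28 and 12.44 in hc1 and 14.13, 14.25, 14.14 and 13.97 in hc24. No group overlapped another. It fell 1.60-fold in hc1 (adjusted p = 0.000337), rose 1.98-fold in hc24 (adjusted p = 2.17e-05) and was 3.16-fold lower in hc1 than in hc24 (adjusted p = 1.06e-06). The lin-29 probe set was at background in all 12 arrays.

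Among the brightest members, col-124 on chromosome IV had values of 14.92, 14.53, 14.76 and 14.62 in wild type, 14.33, 14.76, 14.13 and 14.39 in hc1 and 16.06, 16.13, 16.20 and 16.13 in hc24. hc24 was well clear of both other groups, while hc1 overlapped wild type through replicate 2. It rose 2.69-fold in hc24 (adjusted p = 7.93e-07), and hc1 was 3.32-fold lower than hc24 (adjusted p = 8.15e-07). Its fall in hc1 was slight (1.24-fold, adjusted p = 0.0410) and was lost after median centring (0.678), without the filter (0.0590), with only these groups in the fit (0.0796), with array weights (0.0549) and without any 1 of wild type replicates 3 and 5, hc1 replicates 1, 5 and 6 and hc24 replicates 1, 2 and 5 (adjusted p = 0.0502 to 0.127), but not without hc1 replicate 2 (adjusted p = 0.00305).

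col-142, on chromosome V, a gene known as a target of the DBL-1 body-size pathway, rose in hc24 alone. Its values were 8.74, 8.88, 8.76 and 8.22 in wild type, 8.30, 8.73, 8.34 and 8.37 in hc1 and 9.98, 10.07, 9.99 and 10.14 in hc24, so hc1 and wild type overlapped. The rise was 2.63-fold (adjusted p = 2.71e-06), the alleles differed 3.05-fold (adjusted p = 3.47e-06), and hc1 against wild type did not pass (log2 -0.22, or 0.035 after median centring, adjusted p = 0.169; 0.0257 after cyclic loess and 0.00877 without wild type replicate 6). Its chromosomal neighbour col-141 and col-41, other known DBL-1 targets, did not pass in any of the comparisons on the deposited scale with all arrays, with means of 5.31 to 5.53 and 6.19 to 6.43. After cyclic loess (adjusted p = 0.0333), and without wild type replicate 3 or 6 (0.0295 and 0.0348), col-41 was lower in hc1, and after median centring col-141 was higher in hc24 (0.00213).

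**Figure D4:**
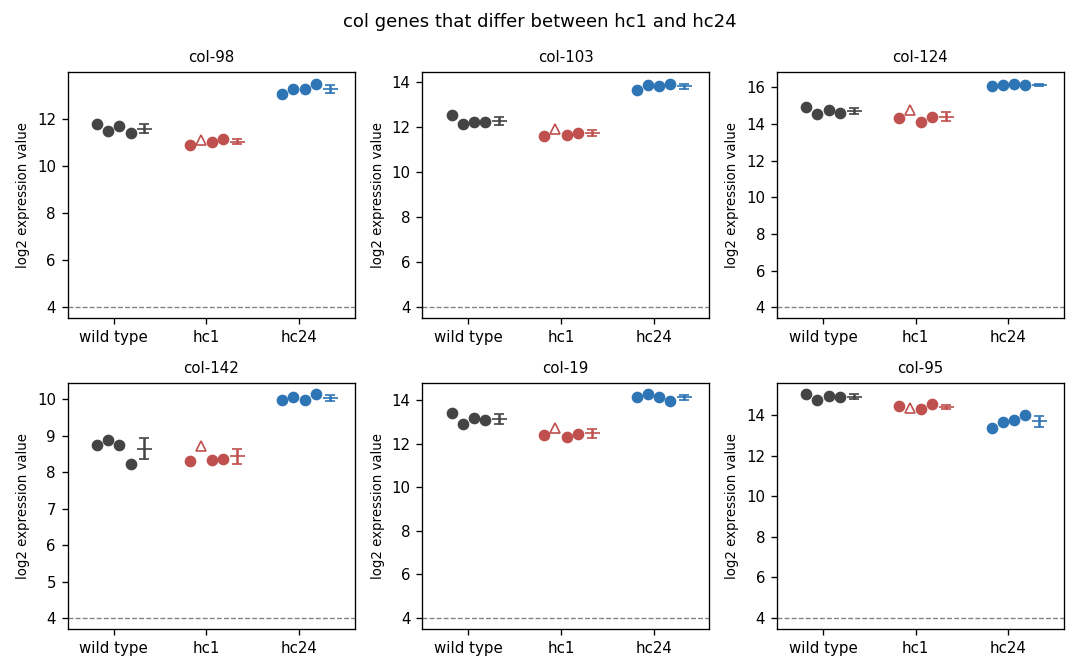
Log2 expression value of each array for 6 col genes that differ between the alleles, in wild type (grey), hc1 (red, replicate 2 as an open triangle) and hc24 (blue), with the mean and SD of 4 arrays beside the points and background (log2 4) as a dashed line. In col-98, col-103, col-124, col-142 and col-19 the hc24 arrays lie above all others, and in col-95 they lie below all others.

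The largest rises in hc24 were of a different kind, since hc1 replicate 2 shared them. col-129, on chromosome IV, had values of 5.98, 4.93, 4.70 and 5.18 in wild type, 3.93, 8.49, 4.41 and 4.26 in hc1 and 9.81, 10.22, 10.06 and 9.97 in hc24. The hc24 arrays and hc1 replicate 2 were high, and the other hc1 arrays lay at or just above background. It rose 28.2-fold in hc24 (adjusted p = 0.000229). Over all 4 arrays hc1 did not differ from wild type by the test (log2 0.08, or -0.012 after cyclic loess, adjusted p = 0.937), whereas without replicate 2 it was lower (log2 -0.997, adjusted p = 0.00416).

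col-139, on chromosome V, had values of 7.20, 6.60, 6.80 and 6.78 in wild type, 6.52, 8.49, 6.67 and 6.34 in hc1 and 9.92, 9.90, 10.30 and 10.35 in hc24. Again the hc24 arrays and hc1 replicate 2 exceeded every other array. The rise in hc24 was 9.67-fold (adjusted p = 1.21e-05). col-81, on chromosome II, had values of 7.20, 6.36, 6.73 and 6.22 in wild type, 6.26, 8.24, 6.29 and 6.23 in hc1 and 8.86, 9.23, 9.38 and 9.61 in hc24, arranged alike, with a 6.25-fold rise in hc24 (adjusted p = 0.000126). In hc1 neither passed with replicate 2 (adjusted p = 0.725 and 0.791) or without it (adjusted p = 0.0751 and 0.157).

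These 3 genes moved with the major sperm protein list, of which 21 of 21 members passed as higher in hc24 and 0 in hc1, and whose summed level was high in the same 5 arrays. Its part in the result was not tested. All 3 are on probe sets whose probes match more than 1 transcript. A further pair of genes on 1 probe set, col-162/col-161, was raised in hc1 replicate 2 alone, at 3.43, 5.85, 3.27 and 3.81 in hc1, against 3.73, 3.60, 4.04 and 3.79 in wild type and 3.82, 3.90, 4.30 and 4.09 in hc24. No comparison passed for it with all arrays (adjusted p = 0.553 to 0.929), and without replicate 2 it was lower in hc1 than in hc24 (log2 -0.52, adjusted p = 0.0251). It passed the filter only with replicate 2. The other hc1 values (3.43, 3.27 and 3.81) and the hc24 values of 3.82 and 3.90 lie under background, so this call compares values at or near background.

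**Figure D5:**
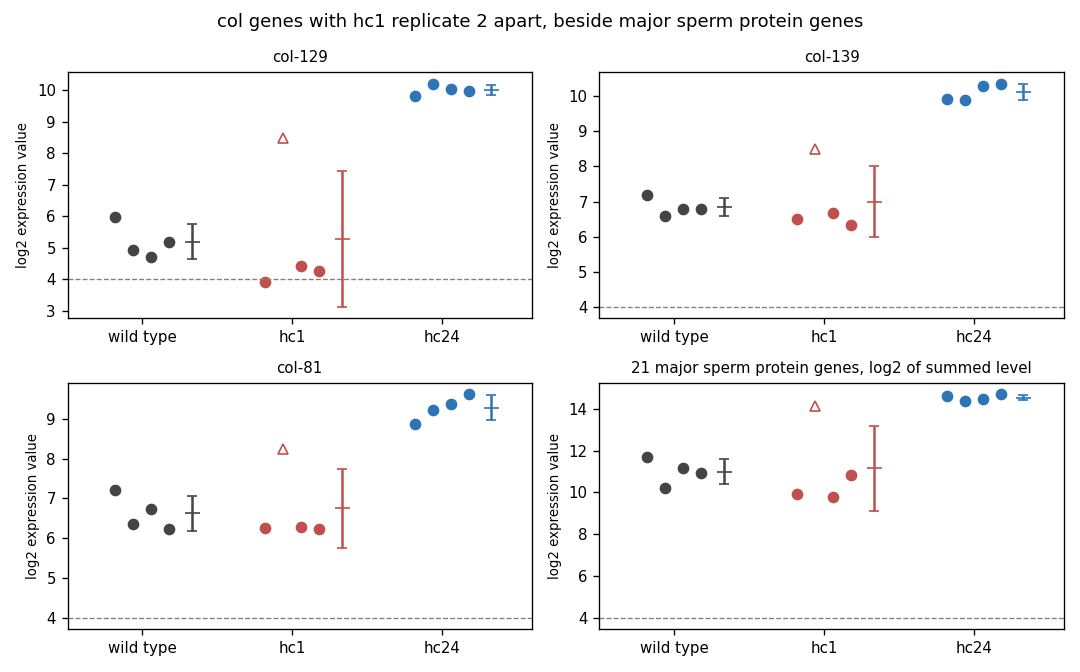
Log2 expression value of each array for col-129, col-139 and col-81 and the log2 of the summed level of 21 major sperm protein genes, in wild type (grey), hc1 (red, replicate 2 as an open triangle) and hc24 (blue), with the mean and SD of 4 arrays and background (log2 4) as a dashed line. In all 4 panels hc1 replicate 2 lies above every other hc1 array and every wild type array, and under every hc24 array.

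In the other direction, hc1 replicate 2 lay farthest under the mean of the other hc1 arrays in col-53 (by 0.46 log2 units), col-150 (0.42), col-158 (0.37) and col-88 (0.35), all dim genes under log2 8. Of these, col-158 was lower in hc1 than in wild type with the array (1.28-fold, adjusted p = 0.00302) and without it (adjusted p = 0.00424), but its fall was lost after median centring (adjusted p = 0.336). col-53 was lower in hc1 than in hc24 with all arrays (adjusted p = 0.0246) and was not called without hc1 replicate 1 or 2 or hc24 replicate 3 or 5 (adjusted p = 0.0618 to 0.0773), without the filter (0.0704) or with only the mutants in the fit (0.0575).

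col-10/col-144 and col-12/col-13 include col-10 and col-13, which are known for raised expression in long-lived worms. The probe set of col-10/col-144 had values of 14.40, 13.97, 14.72 and 14.37 in wild type, 13.70, 14.01, 13.81 and 13.89 in hc1 and 14.51, 14.57, 14.74 and 14.76 in hc24, lower in hc1 (1.43-fold, adjusted p = 0.00465) and not passed in hc24 (adjusted p = 0.0873; 0.0131 without wild type replicate 5). That of col-12/col-13 had values of 12.86, 12.72, 12.999 and 12.76 in wild type, 12.06, 12.78, 12.17 and 12.18 in hc1 and 13.11, 13.22, 13.41 and 13.61 in hc24. It was 1.45-fold lower in hc1 (adjusted p = 0.00725) and 1.42-fold higher in hc24 (adjusted p = 0.0126; 0.0842 after cyclic loess), with hc1 replicate 2 inside the wild type range.

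A further probe set, annotated to col-12 alone but with cross-matching probes, fell 1.51-fold in hc1 (adjusted p = 0.00914) and did not pass in hc24 with all arrays (adjusted p = 0.0721; 0.0226 without hc1 replicate 2 and 0.0494 without hc24 replicate 3). col-17 fell 1.23-fold in hc1 (adjusted p = 0.0256) and rose 1.28-fold in hc24 (adjusted p = 0.0113; 0.136 after cyclic loess and 0.0526 with array weights). Its fall was lost without wild type replicate 5 (adjusted p = 0.0790), hc1 replicate 1 (0.0697) or hc1 replicate 5 (0.0706). col-2, known as a dauer-stage collagen, was dim, at 5.18, 6.72, 5.21 and 6.06 in hc24, and passed in no comparison with all arrays (adjusted p = 0.0587 for hc24; 0.0169 without hc24 replicate 1 and 0.0201 without hc24 replicate 3, where hc1 was also lower than hc24, adjusted p = 0.0224 and 0.0265). After median centring the falls in hc1 of col-10/col-144, col-12/col-13, col-12 and col-17 did not pass (adjusted p = 0.0677, 0.0878, 0.0697 and 0.705), and col-10/col-144, col-12 and col-2 were higher in hc24 (adjusted p = 0.00158, 0.00302 and 0.00749).

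The brightest members changed by small folds. The brighter probe set of col-119 passed in 1 comparison, 1.14-fold lower in hc1 than in hc24 (adjusted p = 0.0319). This call was lost without any 1 of the 8 mutant arrays except hc24 replicate 3 (adjusted p = 0.0547 to 0.0782). Its difference from wild type in hc1 (log2 -0.10) turned to 0.15 after median centring (adjusted p = 0.0250), when it was also higher in hc24 (0.000152). The second probe set of col-119 was lower in hc1 than in wild type (1.12-fold, adjusted p = 0.0369) and than in hc24 (1.21-fold, adjusted p = 0.00500). col-93 averaged 15.39 ± 0.04 over the wild type arrays, 15.13 ± 0.12 over hc1 and 16.14 ± 0.20 over hc24 (SD, n = 4). It rose 1.68-fold in hc24 (adjusted p = 2.78e-05) and fell 1.19-fold in hc1 (adjusted p = 0.0297), a fall lost after median centring (adjusted p = 0.973) and without any 1 of 5 arrays (wild type replicates 3, 5 and 6 and hc1 replicates 1 and 6, adjusted p = 0.0561 to 0.0796). col-94/col-92 rose 1.53-fold in hc24 (adjusted p = 0.000203) and fell 1.32-fold in hc1 (adjusted p = 0.00322; 0.146 after median centring).

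col-122 rose 1.37-fold in hc24 (adjusted p = 0.000280) and did not pass in hc1 (adjusted p = 0.0944; 0.0278 without wild type replicate 4 and 0.00628 after cyclic loess). col-179/col-178 rose 1.27-fold in hc24 (adjusted p = 0.00506; 0.0849 after cyclic loess). Its 1.18-fold fall in hc1 (adjusted p = 0.0310) was lost without wild type replicate 3 or 5 or hc1 replicate 1 or 5 (adjusted p = 0.0608 to 0.0951) and with only these groups in the fit (0.0587), and turned to a log2 difference of 0.020 after median centring.

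Members also moved together from array to array within a genotype. Wild type replicate 4 was the lowest of its group in 62 of 84 members (73.8%, beside 35.1% of all tested probe sets) and replicate 5 the highest in 49 (58.3%, beside 22.3%). hc1 replicate 2 was the highest hc1 array in 55 (65.5%, beside 19.2%) and hc1 replicate 1 the lowest in 39 (46.4%, beside 17.6%). hc24 replicate 5 was the highest in 55 (65.5%, beside 32.4%) and hc24 replicate 1 the lowest in 49 (58.3%, beside 20.7%). The members of an array are thus not independent of each other, and counts of members called are not counts of separate events. The median over the 32 brightest members was 14.01 to 14.40 in wild type arrays, 13.70 to 13.97 in hc1 arrays and 14.16 to 14.33 in hc24 arrays, so hc1 lay apart on this scale and the other genotypes overlapped. After median centring the ranges were 9.48 to 9.74, 9.35 to 9.62 and 9.81 to 9.97, so hc1 overlapped wild type and hc24 lay apart.

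Falls in hc1 were counted on every chromosome that carries tested members: 3 of 5 on I, 9 of 15 on II, 6 of 7 on III, 16 of 23 on IV, 13 of 20 on V and 11 of 14 on X. Of all tested probe sets of those chromosomes 18.5%, 23.5%, 18.7%, 25.2%, 31.8% and 42.2% were lower. Of the 29 members on probe sets designed with cross-matching probes 26 were lower in hc1, of 34 on gene-specific ones 23, and of 21 on probe sets shared by several transcripts 9, where 28.1%, 26.8% and 24.2% of all tested probe sets of these kinds were lower. The near-identical sequences of many collagen genes mean that a bright probe set of the first kind may sum several genes. Of the 32 brightest members, 20 were of that kind. Where a second probe set of the same genes was tested, it lay lower in hc1 than in wild type on the deposited scale in 11 of 11 cases over 10 members. The sizes differed most for col-121 and col-97. By sign alone the chosen probe sets were lower in all 32 bright members, all 14 in the middle range and 33 of the 38 dim ones. The share by sign was not counted over all tested probe sets. Probe sets of the same genes are not independent readings.

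Neighbouring col genes could be compared in 5 pairs in which each gene had a probe set annotated to it alone, including genes named here after their values were seen. Of these, col-17, col-73, col-159 and col-160 are on probe sets with cross-matching probes and col-20 on a probe set shared by several transcripts. Their values may therefore not be those of 1 gene. For comparison, the median log2 difference over the 32 brightest members was -0.41 in hc1 and 0.34 in hc24. On chromosome II, col-17, col-20 and col-73 follow each other, with log2 differences from wild type of -0.30, -0.27 and -0.32 in hc1 and of 0.36, 0.68 and 0.14 in hc24. Also on II, col-39 and col-80 had -0.50 and -0.29 in hc1 and 0.42 and 0.68 in hc24. On chromosome V, col-159 and col-160 had -0.46 and -0.31 in hc1 and 0.85 and 0.68 in hc24. The pair col-141 and col-142, also on V, differed from each other in hc24, at 0.10 and 1.39.

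Collagens named for body shape rather than by number also fell in hc1, and some fell steeply in both mutants. Of 12 tested, 8 fell in hc1 and 0 rose, and 5 fell in hc24 and 1 rose (5 and 4 after median centring). For this and the following lists, 25.9% of all tested probe sets were lower and 43.3% higher in hc1 against wild type. In hc24 these shares were 21.7% and 37.7%, and in hc1 against hc24 they were 12.2% and 18.6%. The furrow collagen gene dpy-2 fell 17.7-fold in hc1 and 18.4-fold in hc24 (adjusted p = 2.53e-12 and 2.19e-12), and dpy-7 fell 16.4-fold and 20.6-fold. dpy-13 fell 1.35-fold in hc1 and rose 1.28-fold in hc24 (adjusted p = 0.00129 and 0.00569; 0.0855 for the fall after median centring and 0.0643 for the rise after cyclic loess), in size and direction like the bright col genes. Of the 12, 4 were lower in hc1 than in hc24, among them dpy-13 and dpy-4 (1.72-fold and 1.77-fold), and 2 were higher, dpy-14 and dpy-17 (2.56-fold and 2.41-fold).

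Of 18 tested genes that process or cross-link collagen, 8 fell and 4 rose in hc1, and 9 fell and 3 rose in hc24; after median centring 7 rose in each. fkb-3 and fkb-5, prolyl isomerases of the endoplasmic reticulum, fell 3.62-fold and 2.87-fold in hc1 (adjusted p = 2.84e-09 and 2.47e-08) and 2.55-fold and 4.20-fold in hc24 (adjusted p = 5.16e-08 and 1.28e-09). The prolyl 4-hydroxylase subunit genes dpy-18 and phy-2, named after their values were seen, fell 1.51-fold and 3.33-fold in hc1 and 1.84-fold and 2.64-fold in hc24. tmem-39, known for collagen secretion, rose 1.66-fold and 1.47-fold. mlt-7, a peroxidase of cuticle cross-linking, was 2.27-fold lower in hc1 than in hc24 (adjusted p = 4.24e-05). Between the alleles 7 of these genes were higher in hc1 and 3 lower, against 4 and 56 of the 84 col members.

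Among regulators of epidermal timing, falls outnumbered rises in both mutants. Of 12 tested, 6 fell and 3 rose in hc1, and 8 fell and 2 rose in hc24. hbl-1, a transcription factor of larval timing, fell 8.03-fold and 22.4-fold (adjusted p = 1.11e-09 and 3.15e-11), and blmp-1, a factor of larval cuticle genes and timing, 5.18-fold and 6.04-fold. egl-18, a GATA factor of the lateral epidermis, rose 1.74-fold and 1.19-fold, the latter not after cyclic loess (adjusted p = 0.343). Besides lin-29, lin-14, mab-10 and grh-1 were at background in all 12 arrays. Of 8 tested genes of the DBL-1 pathway 4 fell and 2 rose in each mutant, whereas 2 fell and 3 rose in hc1 after median centring. The changes were small: lon-1, an inhibitor of body length, fell 1.60-fold and 1.69-fold, and the receptor gene daf-4 rose 1.89-fold and 1.32-fold.

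Most molting genes fell in both mutants. Of 19 tested, 17 fell and 1 rose in hc1 and in hc24 alike, with median log2 differences of -2.46 and -2.57 beside -0.42 and 0.16 for the col members. Their summed level was log2 14.24 to 14.54 in wild type arrays, 11.84 to 12.03 in hc1 and 11.29 to 11.51 in hc24. mlt-11, a protease inhibitor gene of the molt, fell 11.9-fold and 21.3-fold. These genes moved with the steep falls of col-165, col-74 and col-48, and their part in those falls was not tested. The sort gate was set to leave out larvae, while any embryos inside the sorted adults stayed in the sample and were not measured apart. The part of developmental stage in these falls was not tested.

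Epidermis markers, of the tissue that makes cuticle collagens, fell in 7 and rose in 1 of 11 in hc1, and fell in 9 and rose in 1 of 11 in hc24, where the col members did not fall as a class. Their summed level was log2 14.32 to 14.55 in wild type, 13.66 to 13.88 in hc1 and 13.74 to 13.84 in hc24, with vab-19 and che-14 at background. Body wall muscle markers moved with the col genes in hc1, where 8 of 8 fell, and all 8 were lower in hc1 than in hc24. In hc24 against wild type 3 of them fell and 1 rose (1 and 4 after median centring). Of the 84 col members 9 fell and 27 rose there (8 and 55 after median centring). The summed level of the muscle markers was 15.31 to 15.58 in wild type, 14.46 to 14.68 in hc1 and 15.39 to 15.58 in hc24, with unc-22 at background. Their part in the col result was not tested.

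Of the other marker lists, intestine had 4 of 8 lower in each mutant and 0 higher (1 lower and 2 higher in hc24 after median centring). After cyclic loess 8 of 8 were lower in hc1 (beside 34.3% of all tested probe sets) and 5 in hc24 (beside 27.6%). Neurons had 4 of 7 lower and 1 higher in hc1 and 5 lower and 0 higher in hc24 (3 and 1 after median centring). Pharynx had 2 of 4 lower in hc1 and 1 lower and 1 higher in hc24 (1 and 2 after median centring). Germ line and oocyte markers went the other way, with 9 of 12 higher and 1 lower in hc1 and 7 higher and 0 lower in hc24. Early embryo markers rose in 4 and fell in 2 of 6 in hc1, and rose in 3 and fell in 2 in hc24, with a summed level of log2 8.39 to 8.93 in wild type, 10.82 to 10.97 in hc1 and 10.30 to 10.42 in hc24. A shift in how much each tissue adds to the RNA of a worm, and a change within the epidermis, cannot be told apart from these values.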

How the data were processed

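Whole-worm RNA of 12 samples in 3 genotypes was hybridised to 1-colour Affymetrix arrays, 1 array each. For every array the authors deposited log2 values, 1 per probe set, made with Affymetrix Expression Console and GCRMA per the submitters' processing notes (version not given in the sources used here). Gene symbols came from the platform annotation, and all 148 col symbols were matched by Entrez ID to a RefSeq gene table (WBcel235, 159 col genes), with 0 changed. That table also gave chromosomes and gene order. Sequences were not analysed here.

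Probe sets with log2 4 or more in at least 4 of 12 arrays (11833) were fitted with limma 3.58.1 in R 4.3.3, a mean per group over all 12 arrays, no covariates, and two-sided p-values adjusted by Benjamini-Hochberg over all tested probe sets, with a threshold of 0.05. Adjusted p-values in the text are from this model unless an alternative is named. Folds are of group means, and a mean under log2 4 was held at 4 and its fold given as "at least". "Equally bright" means in the same range of the mean over the arrays. The number of arrays limits the precision. The fit was tested on simulated data.

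The rule for named members took 12 genes with known roles, the 6 largest rises and falls among called members without overlap in each comparison, the 6 brightest, the 4 farthest above and below in hc1 replicate 2, and the 2 brightest not tested, which gave 37. The 13 gene lists hold pathway genes and markers, and up to 2 rising and 2 falling genes of each with the smallest adjusted p may be named. Members and lists were chosen with earlier results of these data known. Alternatives were no filter, a filter at log2 6, a floor, median centring, cyclic loess, a replicate block, fits of 2 groups, array weights, the mean of a gene's probe sets, single-gene probe sets and leaving out each array. The labels give no batch.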

Additional observations from a re-analysis of the deposited data

Results flagged for a closer look

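Among the named tested members, 96 groups of 4 arrays were examined for 1 array far from the others, by its gap to the nearest array divided by the range of the group set against Dixon's critical value, and 13 exceeded it, where chance alone picks about 1 in 20 groups. hc1 replicate 2 was the high array in 6 of the 13. These were col-97 (0.985), col-81 (0.970), col-129 (0.895), col-139 (0.847), col-142 (0.846) and col-12/col-13 (0.831). Of these, col-81, col-129 and col-139 had been named because this array lay far above the others in them, so its share of the 13 is partly set by that choice. In hc1, replicate 1 was low in col-2 (0.837). In wild type, replicate 4 was low in col-121 (0.908) and col-74 (0.880), and replicate 5 was high in col-141 (0.961), where the 4 arrays spanned only 5.41 to 5.47. In hc24, replicate 2 was high in col-121 (0.910) and col-158 (0.876), and replicate 3 was low, under background, in col-97 (0.934). Members of 1 array are not independent of each other, and the cause was not tested.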

How the results depend on the processing

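With each array left out in turn, hc1 against wild type gave 48 to 62 members lower (48 without wild type replicate 5) and 0 higher, with a median log2 difference of -0.48 to -0.37. hc24 against wild type gave 25 to 29 higher and 9 to 11 lower, with a median of 0.10 to 0.21. hc1 against hc24 gave 4 to 5 higher and 50 to 58 lower, with a median of -0.67 to -0.53. Without the filter, over all 140 members, 5 were higher in hc1 than in wild type, and the medians were -0.22 for hc1 against wild type and -0.24 for hc1 against hc24, since untested members near background are then included. Median centring gave 2 higher and 27 lower in hc1 with a median of -0.16, and 55 higher in hc24 with a median of 0.42; cyclic loess gave a median of -0.58 in hc1. Of 2073 values of 32 named members under 22 alternatives, 1946 kept direction and side of the threshold, 55 no longer passed, 37 newly passed and 35 changed sign, 29 of them between values that did not pass. After median centring these were, in hc1 against wild type, col-2 (0.17), col-41 (0.015), col-88 (0.033), col-119 (0.15), col-122 (0.10), col-141 (0.13), col-142 (0.035), col-150 (0.15) and col-179/col-178 (0.020), and in hc24 col-41 (0.062) and col-158 (0.25). After cyclic loess they were col-129 in hc1 (-0.012) and col-119 in hc24 (-0.032), with array weights col-158 in hc24 (0.0051), and with probe sets averaged col-121 in hc1 against hc24 (0.72). With 1 array left out, values in hc1 against wild type ran from -0.997 to 0.52 for col-129, -0.34 to 0.38 for col-139, -0.37 to 0.32 for col-81, -0.28 to 0.58 for col-162/col-161 and -0.12 to 0.0074 for col-2. Those of col-158 in hc24 ran from -0.035 to 0.012, and those in hc1 against hc24 from -0.52 to 0.34 for col-162/col-161 and -0.12 to 0.030 for col-121. The cause was not tested. Dim probe sets near background and very bright ones limit how well a difference can be read.

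Deviations from the group means of same-numbered arrays of different genotypes had correlations of -0.07 to 0.08 in 7 pairs. Those of arrays with different numbers ran from -0.24 to 0.23. No pairing by number was seen, but so few pairs cannot exclude a weak or partial one. With the replicate block, 0 members were higher and 55 lower in hc1 (median -0.45), 24 higher and 12 lower in hc24 (0.13), and 4 higher and 57 lower in hc1 against hc24 (-0.57). With the block, the sign changed for col-129 (-0.29) and col-88 (0.00038) in hc1 and for col-162/col-161 (-0.036) and col-158 (0.056) in hc24. The adjusted p with the block was 0.0893 for col-17 in hc1, 0.0511 for col-17, 0.0702 for col-12/col-13 and 0.0756 for col-179/col-178 in hc24, and 0.0767 for col-119 in hc1 against hc24.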
